A study of Mus musculus with 12 samples.

Results

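The genes described here are Trp53, which encodes the transcription factor p53, and 9 genes that p53 is known to switch on directly: Cdkn1a, Mdm2, Ccng1, Bax, Bbc3, Trp53inp1, Sesn1, Zmat3 and Phlda3. They were chosen by name, and 10 of 10 were found as row names in each of the 4 deposited expression tables, among 16516 gene symbols listed in any table. Macrophages had been grown from mouse bone marrow, and the 2 genotypes are called WT (wild type, with the allele written WTfl/fl) and KO (MGMT knockout). The labels name neither a Cre driver nor the age, sex or number of mice. Cells of each genotype received for 24 h either DMSO, the vehicle, or DMXAA, an agonist of mouse STING for which the series gives 10 mg/ml. Each of the 4 groups (WT DMSO, WT DMXAA, KO DMSO, KO DMXAA) holds 3 libraries, 12 in all, under a single batch label. Since nothing says that the 3 libraries of a group came from separate mice or cultures, p-values cover no more than the variation among these libraries, which may be technical.

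p53 is held at a low level in unstressed cells by MDM2, a ubiquitin ligase whose gene p53 itself activates, so the pair forms a feedback loop. When DNA is damaged, p53 escapes this control and activates genes that halt the cell cycle, repair damage or trigger apoptosis. MGMT removes alkyl groups from guanine in DNA, and STING is the adaptor through which cytosolic DNA induces interferons and inflammatory genes in macrophages.

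The starts of these genes were searched for the letters p53 binds, because the group, chosen by name, holds direct p53 targets and Trp53 itself. Only bases near a start were searched, so p53 sites elsewhere in a gene were not looked for. RefSeq (GRCm38.p6) gave 12 windows, from 250 bases before a transcription start to 50 bases after it, for 8 of the 10 genes and none for Trp53inp1 and Zmat3. At least 1 p53 half-site, the 10-letter consensus known by that name, was present in 6 of 12 windows, covering Trp53, Cdkn1a, Mdm2, Ccng1, Bax and Sesn1. Over all 32851 RefSeq windows of the same length 8.36% held one. The sequences below show those half-sites in capitals, each read 5′ to 3′ on the gene's strand, with 25 bases on either side, and for Cdkn1a the whole 250 bases before its upstream start.
Cdkn1a, chr17:29090729-29090978, plus strand: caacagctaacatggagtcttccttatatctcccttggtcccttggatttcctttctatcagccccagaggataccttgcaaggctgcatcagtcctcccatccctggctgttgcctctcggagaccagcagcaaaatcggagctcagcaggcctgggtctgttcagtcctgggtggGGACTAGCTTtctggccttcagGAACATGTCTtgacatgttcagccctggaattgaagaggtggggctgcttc
Ccng1, chr11:40755437-40755496, minus strand: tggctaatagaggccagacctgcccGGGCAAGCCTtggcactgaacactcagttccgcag
Mdm2, chr10:117710910-117710969, minus strand: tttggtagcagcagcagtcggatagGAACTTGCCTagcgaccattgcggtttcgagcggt
Trp53, chr11:69580259-69580318, plus strand: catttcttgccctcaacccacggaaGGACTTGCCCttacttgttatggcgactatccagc
Bax, chr7:45467065-45467124, minus strand: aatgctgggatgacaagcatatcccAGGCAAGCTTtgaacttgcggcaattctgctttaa
Sesn1, chr10:41887241-41887300, plus strand: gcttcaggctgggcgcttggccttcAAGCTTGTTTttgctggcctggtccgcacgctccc

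The Cdkn1a window held 2 half-sites that were 12 bases apart and lay 42 to 73 bases before the start. A full site, defined as 2 half-sites at most 13 bases apart, was found in 1 of these 12 windows and in 0.0731% of all windows. Allowing 1 letter off over 2 adjoining half-sites gave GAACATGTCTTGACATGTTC in Cdkn1a, which overlaps its second half-site, and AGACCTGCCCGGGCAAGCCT in Ccng1, which includes the half-site shown. Such a 20-letter match occurred in 2 of the 12 windows and in 0.0883% of all windows. The half-site of Sesn1 belongs to its downstream start, 76865 bases from the upstream one, and Cdkn1a also has a second start, 2790 bases downstream, whose window held none. The windows of Bbc3 and Phlda3 held no half-site. The core of the interferon-stimulated response element (TTTCNNTTTC, or GAAANNGAAA on the other strand) was in 0 of 12 windows against 3.44% of all, and the gamma-activated site (TTCNNNGAA, its own reverse complement) in 0 of 12 against 8.30%. The GC box (GGGCGG or CCGCCC) was in 9 of 12 windows, covering 6 of 8 genes, against 35.7% of all windows. Some windows belong to the same gene, and those of Bbc3 partly overlap. A match is a description of letters in these windows, and reads counted per gene do not say which start was used.

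Library depth was 79.5 M to 98.1 M reads recovered from the tables, and the 3 KO DMXAA libraries, at 94.1 M to 98.1 M, were the deepest. Mgmt, the targeted gene (chr7:136894614-137130266, plus strand), had 263, 245 and 243 reads in WT DMSO and 121, 141 and 162 in KO DMSO. In WT DMXAA it had 107, 85 and 99 reads, and in KO DMXAA 51, 61 and 33. Mgmt was thus lower in every KO library than in every WT library of the same treatment but was not absent, and reads per gene cannot show a deletion of part of the gene. All 7 macrophage markers (Adgre1, Csf1r, Cd68, Itgam, Mertk, Fcgr1 and Lyz2) were above 3 reads in every group. Their summed level was 20373 to 20836 reads per M reads in WT DMSO, 11447 to 11689.6 in WT DMXAA, 16541 to 17332 in KO DMSO and 9371 to 9461 in KO DMXAA, but the 7 genes did not move together. Between genotypes under DMSO, Lyz2 (log2 difference -0.66), Fcgr1 (-0.43) and Itgam (-0.28) were called lower in KO, while Adgre1 (-0.026), Csf1r (0.078), Cd68 (0.072) and Mertk (0.10) were not called. Under DMXAA, Lyz2 (-0.87) and Mertk (-0.33) were called lower in KO. With DMXAA in WT, Itgam (log2 difference -1.42), Lyz2 (-1.11), Csf1r (-0.70) and Adgre1 (-0.23) were called lower. Fcgr1 (3.31) and Cd68 (0.36) were called higher there, and Mertk (-0.12) was not called. The 4 monocyte markers summed to at most 19.3 reads per M under DMSO and to at least 115 under DMXAA. The 7 neutrophil markers summed to 4.71 to 6.62 reads per M in WT DMSO, 0.733 to 1.18 in KO DMSO, 2.51 to 2.89 in WT DMXAA and 0.734 to 0.808 in KO DMXAA, with S100a9 called lower in KO under both treatments. The 5 stromal markers summed to 0.185 to 0.564 in WT DMSO, 0.631 to 5.57 in KO DMSO, 0.130 to 0.452 in WT DMXAA and 0.499 to 0.850 in KO DMXAA, with Col1a1 called higher in KO under both treatments. The Col1a1 groups overlapped under DMSO, with normalized counts of 9.74, 184 and 219 in KO and 23.6, 0 and 0 in WT. Dendritic cell markers summed to at most 0.352 reads per M under DMSO and to 3.80 to 4.88 under DMXAA. Of these, Xcr1 was called higher with DMXAA (log2 difference 5.91 in WT and 7.18 in KO), while Flt3 and Zbtb46 had too few reads to be tested. Endothelial markers summed to at most 3.75 reads per M. The B cell markers reached at most 0.348 reads per M, T or NK cell 0.227, mast cell or basophil 0.151 and erythroid 0.0917. Of these, Cd3d, Mcpt8 and Fcer1a were not listed or at 0 in all 12 libraries, while Klrb1c and Cpa3 had reads. The B cell marker Ms4a1 was called higher with DMXAA in WT (log2 difference 4.16). The part of these marker differences in the results below was not tested, and in bulk RNA fewer cells of a type and less RNA per cell cannot be told apart.

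Levels can be compared between genes only per length, so reads were also expressed per kilobase of exon per M reads (RPKM), with exon lengths from GENCODE M21 on mm10. In WT DMSO, Bax, the pore-forming protein of the mitochondrial pathway of apoptosis, had the highest RPKM, 49.9 ± 2.84 (SD, n = 3). Sesn1, a stress-responsive inhibitor of mTORC1, followed at 41.2 ± 1.15, Cdkn1a, the cyclin-dependent kinase inhibitor p21, at 30.9 ± 3.03, Trp53 at 24.3 ± 1.08 and Mdm2 at 20.8 ± 0.988. Ccng1, which encodes cyclin G1, stood at 10.999 ± 0.299. Trp53inp1, a p53 cofactor with a role in autophagy and apoptosis, was at 4.22 ± 0.599 and Bbc3, the BH3-only apoptosis inducer PUMA, at 1.97 ± 0.175. Phlda3, an inhibitor of AKT signalling, and Zmat3, an RNA-binding splicing regulator, were lowest at 0.914 ± 0.0697 and 0.822 ± 0.0776. Only this last pair of neighbours overlapped between libraries in WT DMSO, and in the other 3 groups no neighbours did.

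Under DMXAA the order changed at the top. Cdkn1a became the highest of the 10 genes by RPKM, at 49.2 ± 1.36 in WT and 35.2 ± 1.69 in KO, while Bax was second in both genotypes. Sesn1 moved from second to sixth place, at 6.85 ± 0.301 in WT and 5.51 ± 0.192 in KO. Trp53 ranked 4 of the 10 genes in all 4 groups and Bbc3 ranked 8. The lowest level of all was that of Phlda3 in KO DMXAA, 0.262 ± 0.0820.

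**Figure D1:**
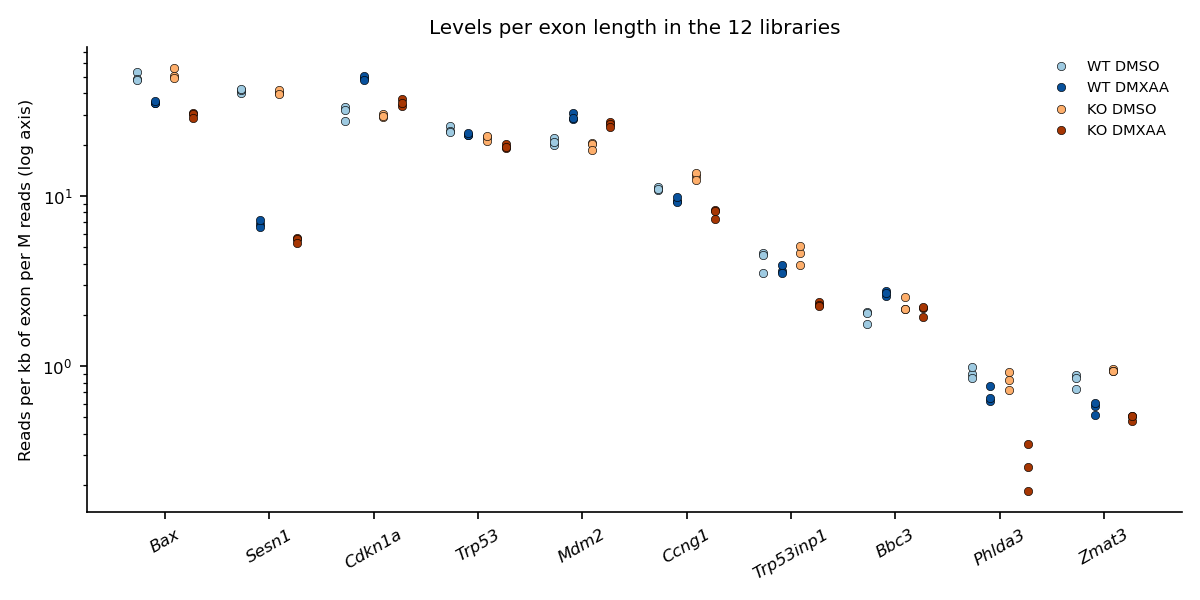
Level of each of the 10 genes in reads per kilobase of exon per M reads (log axis), 1 point per library and 1 colour per group, genes ordered by their mean in WT DMSO. Sesn1 stands near Bax under DMSO and below Ccng1 under DMXAA, and Phlda3 in KO DMXAA lies below every other point.

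The first question was how DMXAA changed these genes in WT macrophages. Cdkn1a rose 1.99-fold, Mdm2 rose 1.76-fold, the apoptosis inducer Bbc3 rose 1.69-fold, Trp53 itself rose 1.18-fold, Bax fell 1.13-fold and Sesn1 fell 4.83-fold, while Ccng1, Trp53inp1, Zmat3 and Phlda3 did not pass the test. That is 6 of 10 genes called at an adjusted p below 0.05 by limma, 4 higher and 2 lower. Over all 12752 genes tested 62.8% were called, 31.7% higher and 31.1% lower, so the share among these 10 genes is near that of all genes. The libraries of the 2 treatments did not overlap for 7 of the 10 genes, beside 68.8% of all genes.

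The values that follow are normalized counts, the authors' read counts divided by a size factor for each library, and are comparable within a table but not between genes. Cdkn1a (chr17:29090976-29100727, plus strand) had 9321, 8868 and 7667 in WT DMSO and 16875, 17726 and 16761 in WT DMXAA. Every treated library lay above every control, and the difference was 0.99 on the log2 scale (SE 0.070, adjusted p = 9.32e-07 by limma). Annotated exons of Cdkn1a share 273 bases, 7.68% of their length, with AC167363.2, a predicted transcript on the other strand, and whether counting used strand is not given in the sources used here. Mdm2 (chr10:117688875-117710758, minus strand) went from 7989, 8646 and 8242 to 15167, 14226 and 14313, a log2 difference of 0.81 (SE 0.050, adjusted p = 3.30e-07 by limma). Its libraries also lay apart without overlap.

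Sesn1 (chr10:41809935-41908424, plus strand) showed the largest difference of the 10 genes in absolute log2 terms and in the opposite direction. Its normalized counts were 12591, 12926 and 13208 in WT DMSO and 2624, 2582 and 2811 in WT DMXAA, which is a log2 difference of -2.27 (SE 0.052, adjusted p = 1.87e-10 by limma). No other gene of the group fell at least 2-fold in WT, a size that 10.4% of all genes tested reached together with the test.

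Trp53 (chr11:69580359-69591873, plus strand) had 8180.0, 7526 and 7494 normalized counts under DMSO and 8888, 9107 and 9284 under DMXAA. The treated libraries lay above the controls by 0.23 on the log2 scale (adjusted p = 2.64e-03 by limma), but the call was lost with upper quartile scaling (0.13, adjusted p = 0.0533), and with the libraries scaled to the same total the difference was -0.083 and not called. That scaling moved the median of all genes by -0.32 in WT and -0.39 in KO, so Trp53 stayed above the median gene under either scaling. Bbc3 (chr7:16308393-16318205, plus strand) went from 297, 344 and 345 to 565, 539.6 and 559, groups that did not overlap, with a log2 difference of 0.76 (adjusted p = 7.47e-05 by limma). Bax (chr7:45461697-45466898, minus strand), whose exons share 192 bases with the predicted gene Gm45808 on the same strand, went from 6636, 5982 and 5948 to 5335, 5440.1 and 5607. Its log2 difference of -0.18 had an adjusted p of 0.0199 by limma. The call was lost without WT DMXAA replicate 1 (0.0669) or replicate 2 (0.0577), and with a block for the number in the library name (0.0851). With that block only the libraries named II and III bear on the treatment contrast.

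Among the genes not called in WT, Ccng1 (chr11:40748552-40755311, minus strand) had a log2 difference of 0.10 (95% interval -0.03 to 0.23), which became -0.0095 with upper quartile scaling and turned to -0.22, called, when libraries were scaled to the same total. Trp53inp1 (chr4:11156431-11174379, plus strand) had 0.12 (-0.10 to 0.35), which turned to -0.19 with scaling to the same total and was not called there. The difference was -0.21 (-0.43 to 0.01) for Zmat3 (chr3:32334792-32366014, minus strand) and -0.11 (-0.47 to 0.25) for Phlda3 (chr1:135766119-135769136, plus strand). Zmat3 was called lower with upper quartile scaling (-0.32, adjusted p = 0.0159 by limma), with scaling to the same total (-0.53, 9.50e-04) and without WT DMSO replicate 1 (-0.29, 0.0288), and Phlda3 with scaling to the same total (-0.43, 0.0345). For these last 3 genes the libraries of the 2 treatments overlapped, while for Ccng1 they did not. Scaled to the same upper quartile the 10 genes gave 3 higher and 3 lower calls, and scaled to the same total 3 higher and 5 lower, where the share of all calls that were higher went from 50.5% to 39.2% and 22.4%.

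In KO macrophages DMXAA gave 10 of 10 calls, 4 higher and 6 lower, against 66.6% of 12704 genes tested (33.7% higher, 32.9% lower). The libraries did not overlap for 9 of 10 genes, beside 71.0% of all genes. The 4 genes called higher were those called higher in WT. The 6 called lower were Bax and Sesn1, as in WT, and also Ccng1, Trp53inp1, Zmat3 and Phlda3. Scaled to the same upper quartile there were 2 higher and 6 lower calls, and scaled to the same total 2 and 7, while the share of all calls that were higher went from 50.6% to 38.7% and 20.3%.

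Cdkn1a had 8558, 8131 and 8413 normalized counts in KO DMSO and 12312, 13717 and 13029.7 in KO DMXAA. The groups did not overlap and differed by 0.64 on the log2 scale (SE 0.050, adjusted p = 1.31e-06 by limma). Mdm2 went from 8223, 8046 and 7564 to 14254, 14077 and 13525, again 0.81 (SE 0.047). Sesn1 went from 12608, 13062 and 12669.7 to 2320.1, 2328 and 2201, a log2 difference of -2.48 (SE 0.047, adjusted p = 1.62e-11 by limma). All 3 genes kept the direction and call they had in WT under every alternative tried.

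Trp53 rose by 0.23 (adjusted p = 2.33e-03 by limma) in KO, a call that was lost with upper quartile scaling and turned to a called -0.16 with scaling to the same total. Bbc3 went from 363, 358 and 435 to 427, 487 and 495, groups that overlapped. Its log2 difference of 0.29 (adjusted p = 0.0418 by limma) lost its call with DESeq2, with no filter, with upper quartile scaling, in the authors' deposited table and without any 1 of 4 libraries, and turned to -0.10 with scaling to the same total. The adjusted p was 0.123 and 0.125 without KO DMSO replicates 1 and 2, and 0.111 and 0.124 without KO DMXAA replicates 2 and 3.

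Next came Trp53inp1, Ccng1, Phlda3 and Zmat3, called lower in KO and not in WT with the deposited scaling. The difference between genotypes was tested with the interaction term further on, and that of Zmat3 did not pass. Trp53inp1 had 2385, 2562 and 2047 normalized counts in KO DMSO and 1599.7, 1555 and 1529 in KO DMXAA, a log2 difference of -0.57 (SE 0.082, adjusted p = 1.23e-04 by limma). Ccng1 went from 3619.8, 3727 and 3525 to 2986, 2984 and 2669, or -0.33 (SE 0.060, adjusted p = 6.42e-04). Phlda3 went from 89.5, 101 and 116 to 41.0, 56.6 and 29.98, or -1.28 (SE 0.255, adjusted p = 1.22e-03), 1 of 2 genes of the group to fall at least 2-fold, as 11.1% of all genes tested did. For each of the 3 the treated libraries lay below all controls. Zmat3 fell by 0.53 and Bax by 0.41 on the log2 scale, also without overlap.

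**Figure D2:**
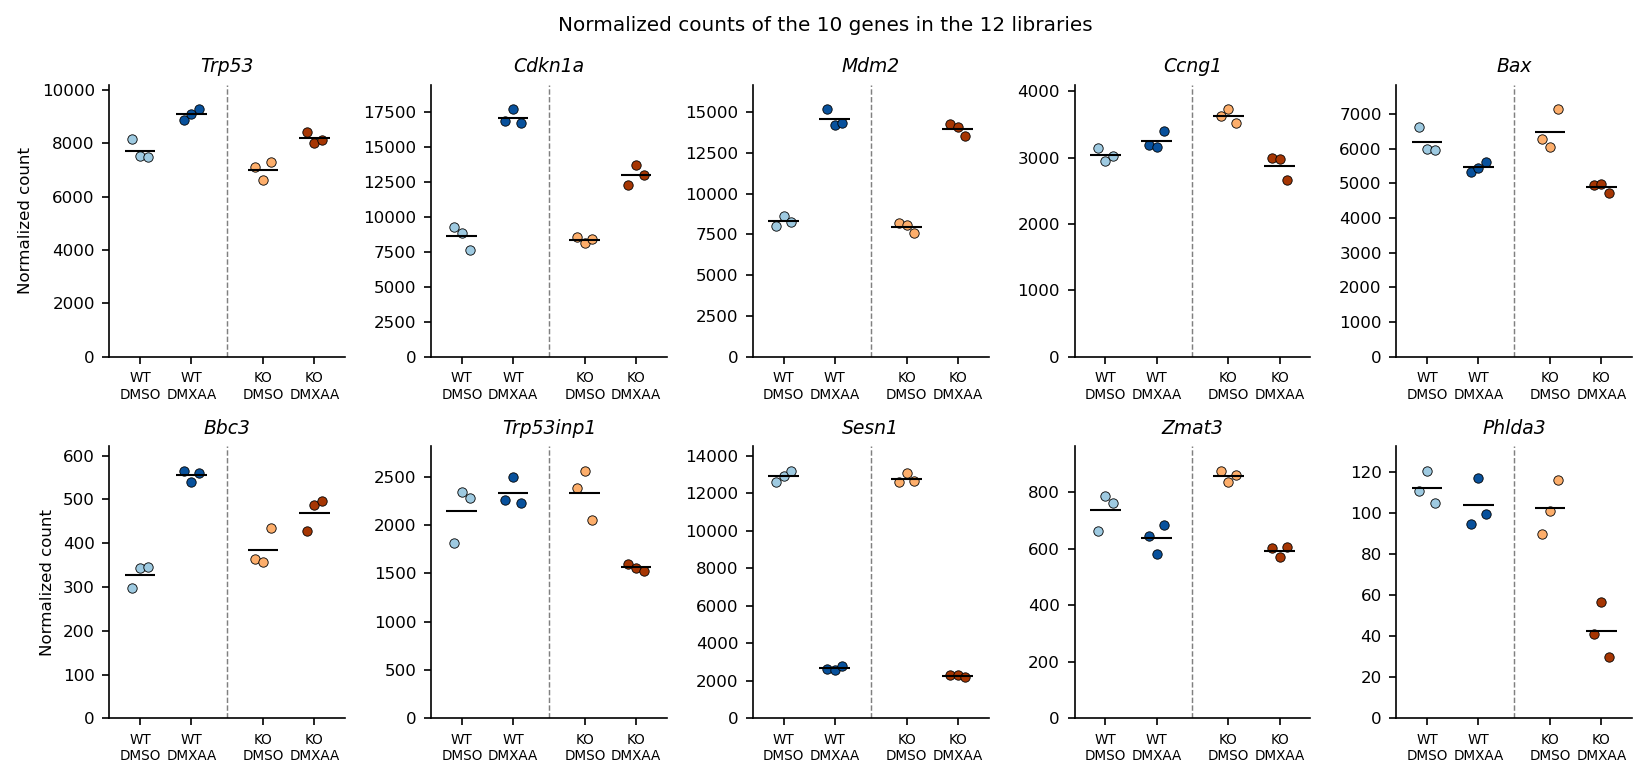
Normalized count of each of the 10 genes in each library (points) with the mean of each group (bar), each axis starting at 0. WT and KO values come from separately scaled tables, divided by the dashed line, so only the treatments within a genotype are comparable. Sesn1 drops from about 12591 to 13208 to at most 2811 in WT, and Phlda3 in KO DMXAA stays at or below 56.6.

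**Figure D3:**
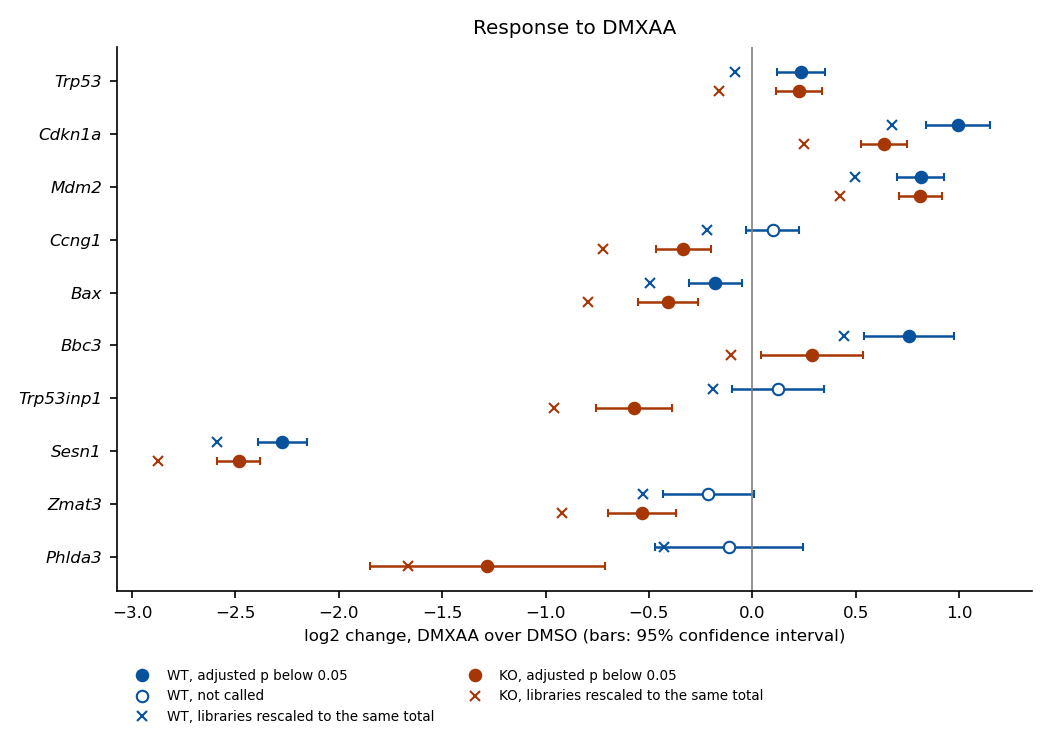
Log2 change of each gene from DMSO to DMXAA in WT (blue) and KO (brown) macrophages with its 95% confidence interval, filled where the adjusted p is below 0.05. Crosses give the change with libraries scaled to the same total, which shifts WT values by about -0.32 and KO values by about -0.39. Under it Trp53 changes sign in both genotypes, Ccng1 and Trp53inp1 in WT and Bbc3 in KO.

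The second question was whether loss of MGMT changed these genes without STING activation. Ccng1 was the 1 gene of 10 called, against 16.6% of 12814 genes tested (7.04% higher, 9.58% lower), and it was higher in KO at 3939, 4069.8 and 3828 normalized counts against 3528, 3302 and 3376 in WT. The groups did not overlap and differed by 0.21 on the log2 scale (adjusted p = 0.0289 by limma). The call was lost without any 1 of 4 libraries, with an adjusted p of 0.0914 and 0.0992 without KO DMSO replicates 1 and 2, and of 0.109 and 0.0787 without WT DMSO replicates 2 and 3.

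None of the other 9 genes was called by limma, and 5 of the 10 genes had groups that did not overlap, beside 34.7% of all genes. Trp53 had 7738, 7259 and 7919 in KO and 9163, 8443 and 8385 in WT, a log2 difference of -0.18 (95% interval -0.31 to -0.05) whose adjusted p of 0.0578 by limma missed the threshold, though the groups did not overlap and the gene was called in the authors' deposited table, as were 14.8% of the genes with an adjusted p there. Cdkn1a differed by -0.079 (-0.24 to 0.08), Mdm2 by -0.10 (-0.23 to 0.02), Sesn1 by -0.06 (-0.16 to 0.05) and Bax by 0.03 (-0.13 to 0.18). For the lower expressed genes the intervals were wider, such as -0.54 to 0.18 for Phlda3. Bbc3 was at 0.19 (-0.07 to 0.44), Zmat3 at 0.18 (-0.01 to 0.37) and Trp53inp1 at 0.08 (-0.16 to 0.32).

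The third question was the same under DMXAA. All 10 genes had a log2 difference below 0, 8 of 10 were called lower in KO and 0 higher (0 also at an unadjusted p below 0.05, and by edgeR and DESeq2). Of the 12499 genes tested 21.5% were called, 10.8% lower and 10.7% higher. Their median log2 difference was -0.24, beside -0.0020 over all genes. The libraries of the 2 genotypes did not overlap for 9 of the 10 genes, all lower in KO, against 18.5% of all genes. Mdm2 and Zmat3 were the 2 genes not called. The 10 genes gave 7 lower calls with DESeq2, with no filter and in the authors' deposited table, 6 with the replicate block and 6 to 7 with a library left out. Scaling to the same total added Mdm2 to make 9 lower calls and moved the share of all calls that were higher from 49.7% to 34.3%.

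Trp53inp1 and Cdkn1a had the smallest adjusted p of the group. Trp53inp1 had 1434, 1389.9 and 1367 normalized counts in KO DMXAA and 2087, 2295 and 2052 in WT DMXAA, so KO was 1.53-fold lower (log2 difference -0.62, SE 0.062, adjusted p = 7.19e-05 by limma). Cdkn1a had 11036, 12261 and 11650.2 in KO and 15603, 16293 and 15447 in WT, 1.36-fold lower (-0.44, SE 0.046, adjusted p = 9.56e-05 by limma). Neither gene's groups overlapped, and both calls held under every alternative tried.

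Phlda3 had the largest fold and the fewest reads. Its recovered reads were 39, 52 and 27 in KO DMXAA and 84, 110 and 86 in WT DMXAA, before allowing for the greater depth of the KO libraries. The normalized counts, 36.8, 50.6 and 26.8 against 87.3, 108 and 91.6, gave a 2.54-fold lower level in KO (log2 difference -1.34, 95% interval -1.91 to -0.78, adjusted p = 3.67e-03 by limma). With so few reads the size of the difference is known only within that interval.

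Smaller differences were called for Sesn1 (-0.27, adjusted p = 6.83e-03 by limma), Bax (-0.20, 9.76e-03) and Trp53 (-0.19, 7.96e-03). Ccng1, at -0.22, had an adjusted p of 0.0269 that became 0.0993 without KO DMXAA replicate 3, 0.0533 without WT DMXAA replicate 1 and 0.0903 without WT DMXAA replicate 3. Bbc3, at -0.29, had an adjusted p of 0.0453 that lost the threshold without any 1 of the 6 libraries, ranging from 0.0604 to 0.142, and also with DESeq2 (0.0677), with no filter (0.0684) and in the authors' deposited table (0.0881). Mdm2, the feedback ligase, differed by -0.11 (95% interval -0.20 to -0.01, adjusted p = 0.111), and Zmat3 by -0.14 (-0.34 to 0.05).

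**Figure D4:**
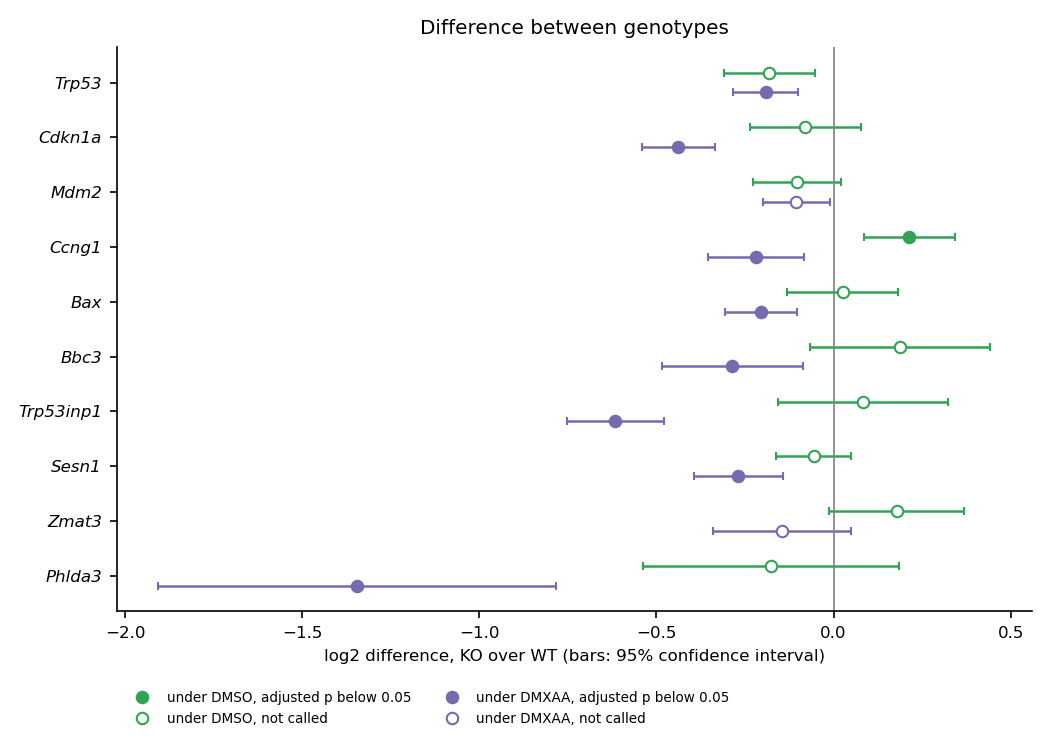
Log2 difference of each gene between KO and WT under DMSO (green) and under DMXAA (purple) with its 95% confidence interval, filled where the adjusted p is below 0.05. Under DMSO the values run from -0.18 to 0.21 around 0, and under DMXAA all 10 lie below 0, from -0.11 for Mdm2 to -1.34 for Phlda3.

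The difference between the genotypes' responses was tested directly as an interaction over all 12 libraries, the response to DMXAA in KO minus that in WT. It draws on the same libraries as the 4 comparisons above. Of the 10 genes 4 were called, all with a lower response in KO: Trp53inp1, Ccng1, Cdkn1a and Phlda3. Of 12729 genes tested 8.6% were called, 5.37% higher and 3.24% lower. All 10 estimates were below 0, those of Mdm2 and Trp53 by so little that they turned above 0 under some alternatives, with a median of -0.34, where 6354 of all 12729 genes were below 0 with a median of 0.00034. DESeq2 called 6 of the 10 genes lower, adding Bbc3 and Sesn1. With the libraries scaled to the same total, 7 genes were called lower and the share of all calls that were higher went from 62.4% to 39.2%.

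Trp53inp1 had an interaction of -0.70 (SE 0.139, adjusted p = 5.91e-03 by limma), made of a response of 0.12 in WT and -0.57 in KO. Ccng1 had -0.43 (SE 0.081, adjusted p = 4.04e-03), from 0.10 and -0.33. These 2 calls held under every alternative tried. Cdkn1a had -0.36 (SE 0.090, adjusted p = 0.0226), from a rise of 0.99 in WT and 0.64 in KO, and lost its call without KO DMSO replicate 1 (0.0561), KO DMXAA replicate 1 (0.0580) or WT DMXAA replicate 2 (0.0591). Phlda3 had -1.17 (SE 0.301, adjusted p = 0.0267) and lost its call in turn without KO DMSO replicate 2 or 3, KO DMXAA replicate 3, WT DMSO replicate 3 or WT DMXAA replicate 2, with adjusted p from 0.0504 to 0.0683.

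The interaction of Mdm2 was -0.0019 with a 95% interval of -0.15 to 0.14, and that of Trp53 was -0.01 (-0.16 to 0.14). The interval of Cdkn1a, -0.55 to -0.17, did not reach that of Mdm2, although both genes rose under DMXAA in both genotypes, and the difference between the 2 genes was not tested. Bbc3 (-0.47, adjusted p = 0.0586), Sesn1 (-0.21, 0.0640), Zmat3 (-0.32, 0.122) and Bax (-0.23, 0.134) missed the threshold.

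Other p53 targets were counted from a list of 37 named from general knowledge, with earlier results of these data known. In WT 12 of 35 tested rose with DMXAA and 11 fell (65.7% called), and in KO 11 of 34 rose and 14 fell (73.5% called). Of all genes 62.8% and 66.6% were called. With scaling to the same total the counts of the list became 6 and 19 in WT and 4 and 22 in KO. Over all genes that scaling gave 2045 higher and 7088 lower calls in WT, and 1996 and 7827 in KO. The smallest p in WT belonged to Ephx1, an epoxide hydrolase (-1.93), Gadd45a, a growth-arrest gene (-1.35), and Ddb2, a nucleotide excision repair factor (0.90), and in KO to Ephx1 (-2.93), Gadd45a (-1.84) and Pmaip1, the BH3-only gene NOXA (1.12). The list held called genes in both directions, as did the 10 genes.

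Between genotypes under DMSO, 3 of 34 further targets were higher in KO and 5 lower, led by Ephx1 (0.68), the mitotic gene Ckap2 (-1.25) and Plk2 (-0.44). That is 23.5% called, beside 16.6% of all genes. Under DMXAA 1 was higher and 8 lower, 26.5% beside 21.5% of all genes, and scaling to the same total gave 0 and 10. Over all genes that scaling gave 939 higher and 1799 lower calls. In that comparison 27 of 34 lay below 0 with a median of -0.10, against -0.24 for the 10 genes. Over all genes 6313 of 12499 lay below 0. The smallest p belonged to Gtse1 (-1.09) and Psrc1 (-1.56), both linked to microtubules and mitosis, and to Gadd45a (-0.56), whose adjusted p of 0.0131 became 0.0507 without WT DMXAA replicate 3. The interaction was called higher for 2 of 34 and lower for 4 (2 and 7 with scaling to the same total), with Ephx1 at -0.999, Gdf15, a secreted stress cytokine, at -1.15 and Plk2 at 0.46. With the deposited scaling 17.6% of those tested were called, beside 8.6% of all genes. Scaling to the same total gave 482 higher and 748 lower interaction calls over all genes.

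Upstream of p53, the list of 25 regulators held kinases, acetylases, ubiquitin ligases and p53-binding proteins. Under DMXAA 7 of 22 tested rose and 9 fell in WT, and 8 of 21 rose and 9 fell in KO, which scaling to the same total turned to 2 and 12, and 3 and 14. With the deposited scaling 72.7% and 81.0% of those tested were called, beside 62.8% and 66.6% of all genes. Scaling to the same total gave 2045 higher and 7088 lower calls over all genes in WT, and 1996 and 7827 in KO. The rises were led by Pml (2.74 in WT and 2.79 in KO) and Daxx (2.67 and 2.74), partners in nuclear bodies, and the falls by Ppp1r13l, the p53 inhibitor iASPP (-1.38 and -1.35). Under DMSO only the checkpoint kinase gene Chek1 was called between genotypes (-1.58 in KO), where 16.6% of all genes were called. Scaling to the same total added the ubiquitin ligase gene Cop1 as higher, beside 1125 higher calls over all genes. Under DMXAA 4 were higher in KO and 2 lower (4 and 4 with scaling to the same total), led by Hipk2 (0.49), Mdm4 (0.27) and Rchy1 (0.27), a kinase that phosphorylates p53 and 2 of its negative regulators. With the deposited scaling 27.3% of those tested were called, beside 21.5% of all genes. Scaling to the same total gave 939 higher and 1799 lower calls over all genes. In the interaction test 0 of 22 was called by limma, edgeR or DESeq2, beside 8.6% of all genes by limma, and 3 had an unadjusted p below 0.05. With scaling to the same total 1 was called lower, beside 748 lower calls over all genes.

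Relatives of the 10 genes by family, such as the BCL2 proteins around Bax and Bbc3, were counted from a list of 26. In WT 10 of 21 rose with DMXAA and 5 fell, and in KO 9 of 21 rose and 9 fell (6 and 11, and 5 and 12, with scaling to the same total). With the deposited scaling 71.4% and 85.7% of those tested were called, beside 62.8% and 66.6% of all genes. Scaling to the same total gave 2045 higher and 7088 lower calls over all genes in WT, and 1996 and 7827 in KO. Bak1, the second pore-forming protein beside Bax, rose by 1.61 in WT and 1.80 in KO, and Mcl1, which restrains both, by 1.08 and 1.02, in contrast to the fall of Bax. Bcl2a1b fell by 1.33 in WT and 1.46 in KO and was higher in KO than in WT under DMSO (0.96) and DMXAA (0.83), but the Bcl2a1 genes are near-identical copies, so reads assigned to one are uncertain. Under DMXAA 3 of 20 were higher in KO and 6 lower, 45.0% of those tested beside 21.5% of all genes. Those lower included the BH3-only gene Bmf (-0.50) and Cdkn1c, a relative of Cdkn1a (-0.81). The interaction was called for 3 of 21, all lower, beside 3.24% of all genes called lower. Of these 3, Bmf (-0.55) held under every alternative tried.

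The cell cycle genes that p21 and its partners restrain were the last list. With DMXAA 12 of 13 fell in WT, and in KO 10 of 13 fell and 1 rose. Of all genes 31.1% and 32.9% were called lower. Scaling to the same total gave 13 falls in WT and 12 in KO, with 0 rises. Over all genes that scaling gave 7088 lower calls in WT and 7827 in KO. In KO against WT all 13 were called lower under DMSO and 10 of 13 under DMXAA, beside 9.58% and 10.8% of all genes. With scaling to the same total both counts were 12, beside 1087 lower calls under DMSO and 1799 under DMXAA over all genes. Top2a, Plk1 and Bub1 fell by 1.66, 2.29 and 1.56 in WT and by 1.25, 2.62 and 1.91 in KO. Mcm5, part of the replicative helicase, was lower in KO by 1.53 under DMSO and 0.93 under DMXAA, and Top2a by 1.31 and 0.90. The 3 not called under DMXAA were E2f1 (-0.17), Cdk2 (-0.082) and Cdc20 (-0.80). The interaction was called for 1 of the 13, Mcm5 (0.60), beside 8.6% of all genes.

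**Figure D5:**
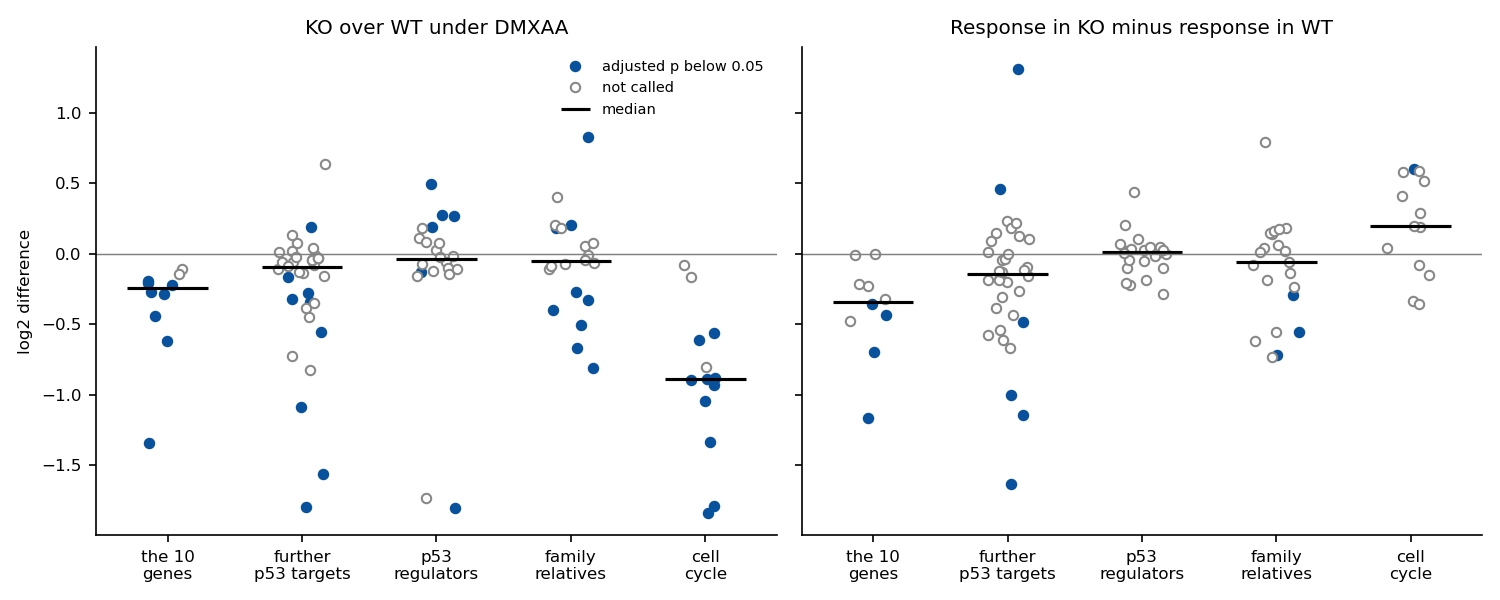
Log2 difference between KO and WT under DMXAA (left) and response in KO minus response in WT (right) for the 10 genes and 4 lists of related genes, 1 point per gene tested, filled where the adjusted p is below 0.05, with the median of each list as a bar. The 10 genes have medians of -0.24 and -0.34, the further p53 targets of -0.10 and -0.14, and the cell cycle genes of -0.89 and 0.20.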

How the data were processed

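Total RNA was prepared with RNeasy columns and turned into strand-specific mRNA libraries, per the labels' protocols. Reads were aligned with HISAT2 to mm10 and counted with featureCounts, per the submitters' processing notes (no versions are given in the sources used here). The authors deposited normalized counts, a signal scaled by a size factor per library within 4 tables of 6 libraries (all DMSO, all DMXAA, all KO, all WT), and, per the file headers, comparison tables with a log2 fold change, a test score, an unadjusted p-value and a p-value adjusted over genes. Whole reads were recovered for all values (tolerance 0.01). Each comparison used 1 table, and the interaction the DMSO and DMXAA tables together. limma 3.58.1 was fitted to log2(normalized count + 1) for genes with a mean of at least 10, two-sided, with Benjamini-Hochberg adjustment over all genes and calls below 0.05. Folds on that scale understate changes of low genes. The procedure was tested on simulated data in which a small share of genes changed, equally up and down. That test therefore does not bear on the choice of scaling. Alternatives were edgeR 4.0.16 and DESeq2 1.42.0 on the recovered reads, other scalings, pseudocounts and filters, a replicate block and leaving out each library. Replicate numbers are those of the sample titles. All 10 genes, Mgmt and, per list and comparison, the 3 genes with the smallest p are named. The 10 genes and the lists were chosen with earlier results of these data known. Limits of detection were taken as 3 reads.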

Additional observations from a re-analysis of the deposited data

Results flagged for a closer look

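The response to DMXAA differed between genotypes by the interaction test for 4 of the 10 genes. The response in KO minus that in WT was -0.36 for Cdkn1a, -0.43 for Ccng1, -0.70 for Trp53inp1 and -1.17 for Phlda3, on the log2 scale (adjusted p of 0.0226, 4.04e-03, 5.91e-03 and 0.0267 by limma).

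Among the named genes of the related lists it was -0.999 for Ephx1 (adjusted p = 4.66e-05), -1.15 for Gdf15 (2.58e-03) and 0.46 for Plk2 (4.70e-03) by limma. Family relatives gave -0.55 for Bmf (2.46e-04), -0.72 for Bcl2a1d (0.0222), which is a near-identical copy of other Bcl2a1 genes, and -0.29 for Trp53inp2 (0.0336). The calls of Bcl2a1d and Trp53inp2 were lost without any 1 of 4 and of 8 libraries, with the highest adjusted p at 0.0593 without WT DMXAA replicate 3 and at 0.0822 without WT DMXAA replicate 2. The replication gene Mcm5 gave 0.60 (4.74e-03).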

How the results depend on the processing

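Over the 5 tests, the 10 genes gave 867 values under the alternatives. Of these 794 kept direction and call, 40 lost the call, 12 gained it and 21 changed sign, and 28 of 50 results kept both throughout. Of the sign changes, 4 were of values called before or after, all with libraries scaled to the same total: the DMXAA response of Trp53 in WT (-0.083) and KO (-0.16), of Ccng1 in WT (-0.22) and of Bbc3 in KO (-0.10). The other 17 were called in neither: Trp53inp1 in WT with scaling to the same total (-0.19), Ccng1 in WT with upper quartile scaling (-0.0095), the interaction of Mdm2 with DESeq2 (0.00087), and 14 with a library left out. There the range was -0.043 to 0.076 for Bax and -0.036 to 0.17 for Trp53inp1 between genotypes under DMSO, and -0.052 to 0.016 for Trp53 and -0.039 to 0.030 for Mdm2 in the interaction. Of the 10 genes, those called between genotypes under DMSO were 1 by limma, 2 by DESeq2 and in the authors' deposited table, 0 with the replicate block (2 at an unadjusted p below 0.05), and 0 to 1 with a library left out. For the interaction they were 4, with 7 after scaling to the same total and 2 to 4 with a library left out. They were 5 to 7 for DMXAA in WT, 9 to 10 in KO and 6 to 7 between genotypes under DMXAA with a library left out.

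Over all genes the calls between genotypes under DMSO were 2129, and 1399 to 1897 with a library left out, the lowest without KO DMSO replicate 1. The other ranges were 7350 to 7864 for DMXAA in WT, 7816 to 8138 in KO, 2005 to 2270 between genotypes under DMXAA and 831 to 1112 for the interaction. With the replicate block Ccng1 (adjusted p = 0.0504) and Bbc3 (0.0724) lost their limma calls between genotypes under DMXAA, as Ccng1 did under DMSO (0.0555). Deviations of same-numbered libraries correlated by -0.036 to 0.066, which cannot show whether such libraries shared a mouse or day. Between treatments in KO, same-numbered pairs correlated by 0.032 to 0.064 and the other pairs by -0.049 to 0.0064. The numbers used here are those in the sample titles. The library names number the DMSO libraries from II and the DMXAA libraries from I, so between treatments they pair other libraries, and between genotypes the same ones. Deviations of the 4 pairs of DMXAA and DMSO libraries sharing a library name number correlated by -0.018 to 0.022. A replicate block by that number, chosen after seeing the data, called 5 of the 10 genes and 6879 of all genes in WT, and 10 and 7990 in KO. Numbers I and IV occur in a single treatment, so in that fit only the libraries named II and III bear on the treatment contrast. Its counts therefore cannot show the effect of pairing alone. With the replicate block by title 7865, 8267, 1915, 2491 and 896 genes were called in the 5 tests in the order WT, KO, DMSO, DMXAA and interaction. Depth limits Phlda3 most, at 27 reads in 1 library.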
